A study of Mus musculus with 14 samples.

Results

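In WT cells, 2098 CTCF sites were called in day 4 embryoid bodies (EBs) but not in mouse embryonic stem cells (mESCs). Of these, 312 also had a CTCF peak in day 4 EBs that carried the CTCF-K20R mutation. These 312 shared acquired sites are described here, out of 86652 sites in all. They were chosen by measured peak calls, namely a peak in both day 4 WT lists, in neither day 0 WT list and in at least 1 of the 2 day 4 K20R lists. Overlapping peaks of the 8 CTCF lists, by 1 bp or more, were merged into 1 site. The calls and strengths in those 3 groups are therefore a description only. The other 1786 WT-acquired sites, with no day 4 K20R peak, are called unshared acquired sites, and the 36440 sites called in all 8 lists are called constitutive sites. In these names, acquired refers to WT alone and shared to a day 4 K20R call. Acquisition in K20R was not required, and 36 of the 312 sites met the same rule there, as described below.

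CTCF is a zinc finger protein that binds a long GC-rich motif and, together with cohesin, anchors chromatin loops and insulates neighbouring domains. Most of its sites are held in common by many cell types. A minority are cell type dependent, and CpG methylation within the motif is known to reduce binding at some of them. H3K27ac, acetylation of histone H3 at lysine 27, marks active promoters and enhancers.

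The cells were E14Tg2A mESCs. The 4 CTCF groups were WT mESCs (day 0), K20R mESCs (day 0), WT EBs (day 4) and K20R EBs (day 4), with 2 libraries each. In K20R cells, lysine 20 of CTCF was replaced by arginine with CRISPR/Cas9. The labels do not give the number of clones, so genotype and clone cannot be told apart. Day 0 cells grew with leukemia inhibitory factor and 2i inhibitors on a layer of inactivated mouse fibroblasts. EBs were grown in hanging drops with serum, without leukemia inhibitory factor, and hold a mixture of cell types. For H3K27ac there was a single day 4 library of each genotype, so its values have no replicate check. The peak lists hold no expression, so cell identity could not be checked against marker genes.

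The CTCF lists held 41360 to 77657 peaks. The first day 0 WT list was the longest and stood apart from its replicate, with 77657 against 52698 peaks. Both day 4 K20R lists, with 41360 and 47463 peaks, were shorter than both day 4 WT lists, with 61088 and 61436. The number of shared acquired sites rested on particular libraries. It was 3071 without the first day 0 WT library and 87 without the second day 4 K20R library. With every list shortened to its 41360 strongest peaks it was 1182.

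Before their values, the sequences of a few shared acquired sites are shown as examples of the kinds of site described below. The strand of each is that of the motif match, read 5′ to 3′, in mm10 (sequence of the same build, GRCm38). Capitals mark the 19 bases of the best match to a CTCF matrix learned from the strongest day 0 WT peaks. Its consensus, with N where no base reached 50%, was NNGCCACCAGGGGGCGCNN. The first set holds 4 of the strongest distal sites with a motif. The site near Kcna10 had the highest match score of the set, and none of the 4 matches held a CpG.
Fcho1 distal site, chr8:71751509-71751569, plus strand: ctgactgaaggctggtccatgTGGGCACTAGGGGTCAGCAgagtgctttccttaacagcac
Smarca2 distal site, chr19:26445493-26445553, minus strand: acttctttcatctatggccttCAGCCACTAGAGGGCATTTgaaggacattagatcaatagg
Kcna10 distal site, chr3:107160216-107160276, minus strand: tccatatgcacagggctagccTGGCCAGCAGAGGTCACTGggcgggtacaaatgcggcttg
Galnt3 distal site, chr2:66172327-66172387, minus strand: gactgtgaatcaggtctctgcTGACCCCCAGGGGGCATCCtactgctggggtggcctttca

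The second set holds sites close to start sites. The first 5 matches contained at least 1 CpG, the dinucleotide at which mammalian DNA is methylated, and the Pnkd match contained none.
Rarres1 start site, chr3:67515630-67515690, minus strand: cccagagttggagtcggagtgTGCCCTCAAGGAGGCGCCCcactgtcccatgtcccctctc
Foxc2 start site, chr8:121116090-121116150, plus strand: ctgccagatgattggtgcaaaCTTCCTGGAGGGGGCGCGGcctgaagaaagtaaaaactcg
Wnt5b start site, chr6:119543920-119543980, minus strand: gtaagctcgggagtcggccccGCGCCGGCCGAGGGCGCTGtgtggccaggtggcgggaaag
Rif1 start site, chr2:52072965-52073025, minus strand: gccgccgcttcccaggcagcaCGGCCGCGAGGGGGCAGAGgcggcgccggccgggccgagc
Armcx6 start site, chrX:134750859-134750919, plus strand: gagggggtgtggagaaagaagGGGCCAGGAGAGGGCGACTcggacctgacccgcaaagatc
Pnkd start site, chr1:74332385-74332445, plus strand: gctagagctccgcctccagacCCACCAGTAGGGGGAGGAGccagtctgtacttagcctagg

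The third set is repeat-derived, a kind of site less frequent at shared than at unshared acquired sites. These matches lie in bases masked as repeats in the reference, on 4 chromosomes. Between pairs of them, 48 to 56 of the 61 bases shown were identical.
Hspa2 repeat site, chr12:76407997-76408057, plus strand: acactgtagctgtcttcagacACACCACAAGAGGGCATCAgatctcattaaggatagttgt
Lmo7 repeat site, chr14:102098226-102098286, plus strand: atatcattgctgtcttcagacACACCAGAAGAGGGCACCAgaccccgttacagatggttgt
Kdm2b repeat site, chr5:122974833-122974893, minus strand: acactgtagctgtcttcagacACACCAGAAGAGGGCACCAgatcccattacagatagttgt
Rab20 repeat site, chr8:11442316-11442376, minus strand: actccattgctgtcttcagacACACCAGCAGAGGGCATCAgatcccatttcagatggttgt

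Shared acquired sites ranked low in the WT EB lists and lower in the K20R EB lists. Strength is the rank of a peak's fold enrichment in its list, as a percentile from the weakest to the strongest peak. In the day 4 WT lists their medians were 22.7 and 24.1. In the day 4 K20R lists that called them, the medians were 8.17 (87 sites) and 11.0 (277 sites). Averaged over both day 4 WT lists, the median was 23.4, against 15.4 for unshared acquired sites and 69.8 for constitutive sites. The strongest site reached 72.2. These values chose the members in part and carry no test.

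**Figure D1:**
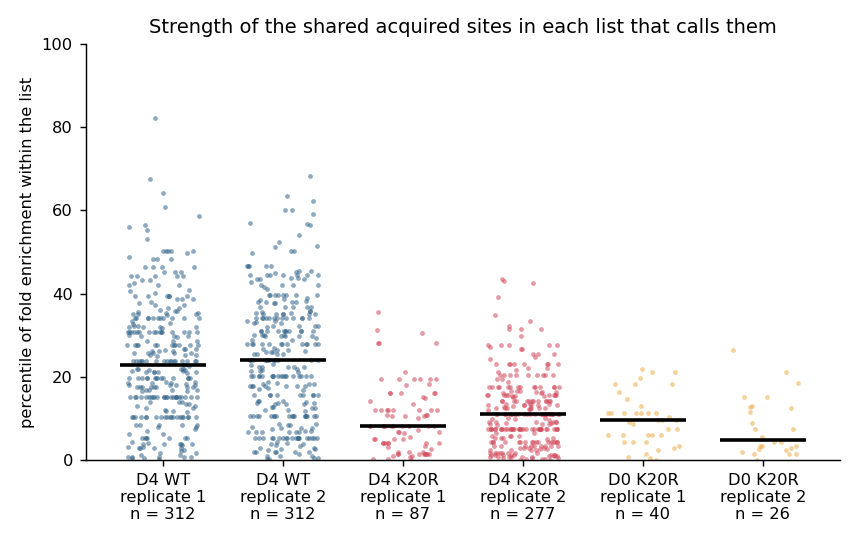
Percentile of fold enrichment within each CTCF list (vertical axis, %) for the shared acquired sites that the list calls. Each point is 1 site, black lines are medians, n is the number of sites called, and the medians fall from 22.7 and 24.1 in the WT EB lists to 8.17 and 11.0 in the K20R EB lists.

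The same was seen in reads. The pileup is the number of extended reads at a peak's summit, recovered as a whole number from the fold enrichment and the −log10 p-value. The lowest pileup that was called was 5 reads in each of the 8 lists. Over shared acquired sites the median pileup was 12 reads in both day 4 WT lists and 9 reads in both day 4 K20R lists. In both WT lists, 192 of 312 sites reached 10 reads, 17 reached 20 reads and 3 reached 30 reads. Among the 52 sites called in both K20R lists, the K20R pileup was below the WT pileup at 43, with a median ratio of 0.731 (interquartile range 0.570 to 0.868). At the 31418 constitutive sites with a recovered pileup in all 4 lists, the median ratio was 1.10. Pileups were not solved at the strongest peaks, with a −log10 p of 200 or more. In K20R replicate 2, 42435 of 47463 peaks were solved, and in replicate 1 41154 of 41360. In the WT lists it was 61017 of 61088 and 61373 of 61436. The constitutive values in reads thus leave out more of the strongest peaks in K20R replicate 2 than in WT. Constitutive sites were stronger in WT, so these ratios were not compared at equal strength. Over constitutive sites with a solved pileup in the list, the lower quartile was 26 reads in both day 4 WT lists and 18 and 25 reads in the K20R lists. The upper quartile was 56 reads in both WT lists and 57 and 74 reads in the K20R lists. Whether weak constitutive sites had a ratio like that of shared acquired sites was not tested.

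**Figure D2:**
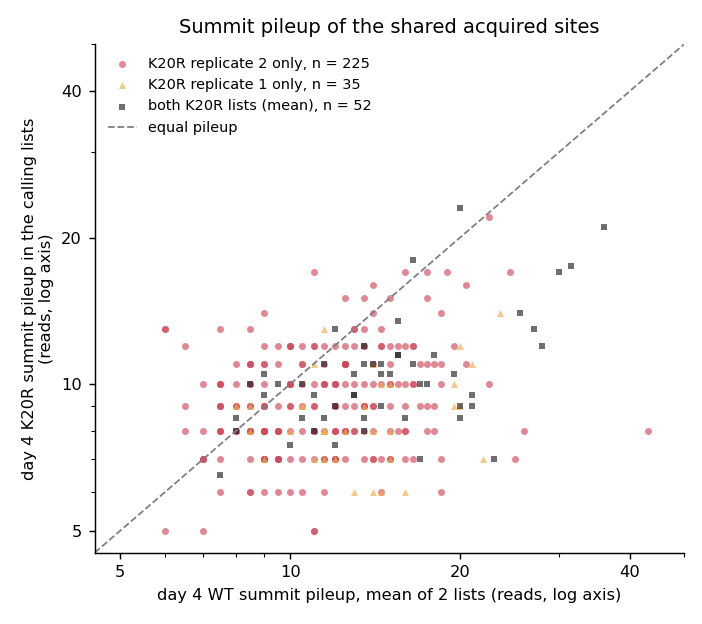
Summit pileup in reads at day 4, with the mean of both WT lists on the horizontal axis and the K20R lists that call the site on the vertical axis (both log axes). Points are the 312 shared acquired sites, split by the K20R list that calls them, and 43 of the 52 sites called in both K20R lists had a lower K20R than WT pileup.

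The second K20R library held most of the K20R calls. Of the 312 sites, 225 (72.1%, 95% Wilson interval 66.9 to 76.8) were called in replicate 2 alone, 35 in replicate 1 alone and 52 in both. The K20R replicate 2 list was the longer of the pair. Over all 55053 sites of both day 4 WT lists, 5219 were in replicate 2 alone and 1194 in replicate 1 alone. Unlike the shared acquired sites, most of these were in both K20R lists. Among the 52955 that were not WT-acquired, 38243 were in both. The intervals given for shares reflect counting error alone. They take each site as independent, although sites of 1 library share its errors.

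Of the WT-acquired sites, 14.9% (13.4 to 16.5) had a day 4 K20R peak. Over all 86652 sites, 2.42% were WT-acquired and 56.5% had a peak in at least 1 day 4 K20R list. Among the remaining sites of both day 4 WT lists the share was 83.8%. The share rose with WT strength. It was 9.79% of WT-acquired sites at a mean WT percentile under 10, 16.6% at 20 to 30, 35.5% at 40 to 50, and 64.7% (11 of 17 sites) at 50 to 60. At equal WT strength the other day 4 WT sites had higher shares, with 34.0% under 10, 56.3% at 20 to 30 and 86.6% at 40 to 50. The K20R calls are part of how the sites were chosen, so these shares are a description.

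**Figure D3:**
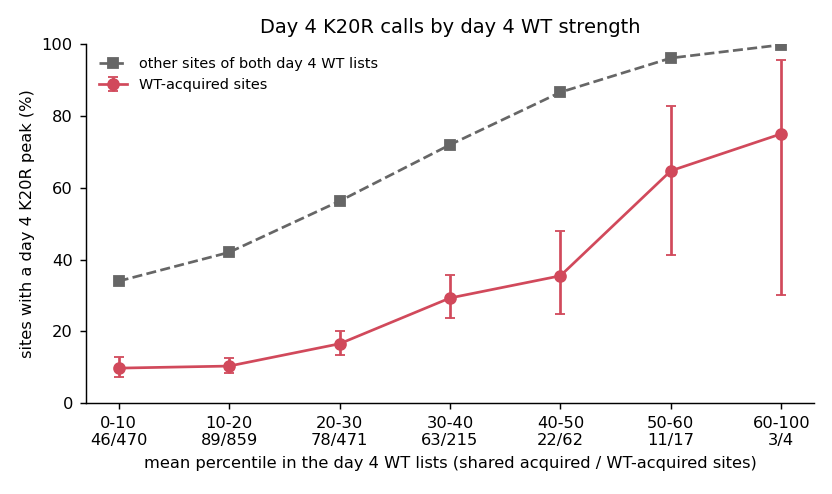
Share of sites with a peak in at least 1 day 4 K20R list (%), by bins of mean percentile in the day 4 WT lists, for WT-acquired sites (circles, with 95% Wilson intervals) and for the other sites of both day 4 WT lists (squares). Numbers under the bins are shared acquired sites over WT-acquired sites, and the WT-acquired sites lie below the others in every bin, at 9.79% against 34.0% in the weakest bin.

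The 10 strongest shared acquired sites, by mean WT percentile, were mostly distal. They were chosen for high WT values, so K20R values below WT at them follow in part from that choice. The Fcho1 distal site (chr8:71751424-71751660, intergenic, 25834 bp from the nearest coding start site) had 44 and 28 reads in WT EBs and 17 and 25 reads in K20R EBs. Both K20R values lay below both WT values there. The Kcna10 distal site (chr3:107160053-107160371, intergenic, 22830 bp from the start of this potassium channel gene) had 33 and 30 reads in WT and 10 and 25 reads in K20R. The Smarca2 distal site (chr19:26445303-26445613, intergenic, 159570 bp away) showed the widest gap. Its pileups were 45 reads (95% Poisson interval 32.8 to 60.2) and 41 reads (29.4 to 55.6) in WT, 8 reads (3.45 to 15.8) in K20R replicate 2 and no call in replicate 1. The Galnt3 distal site (chr2:66172139-66172459, in an intron of the non-coding gene Gm28638) had 27 and 23 reads in WT and 7 reads in K20R replicate 2 alone.

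The intronic site in Rp1 (chr1:4297085-4297410), a gene of photoreceptor cilia, had 21 and 30 reads in WT and 15 and 13 reads in K20R. The intronic site in Col18a1 (chr10:77144363-77144717), which encodes a basement membrane collagen, had 27 and 27 reads in WT and 7 and 19 reads in K20R. It overlapped an H3K27ac peak in K20R EBs only. The intergenic site 45602 bp from Otud1 (chr2:19612066-19612420) had 21 and 26 reads in WT and 14 reads in K20R replicate 1 alone. The site 8952 bp from Syt8 (chr7:142425832-142426164) had 20 and 32 reads in WT and 8 reads in K20R replicate 2 alone. At each of these 4 sites, also chosen for high WT values, every K20R pileup was below every WT pileup. The share of such sites over all sites is not given here.

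The site at Rian was different. Rian and Meg3 are non-coding RNAs of the imprinted Dlk1-Meg3 cluster, which are expressed from the maternal chromosome. The site in a Rian intron (chr12:109608966-109609369, 2259 bp from the microRNA gene Mir341) had 23 and 22 reads in WT and 22 reads in K20R replicate 2, but no call in replicate 1. A second shared acquired site lay 46561 bp away in an exon of Meg3 (chr12:109562561-109562847), with 10 and 8 reads in WT and 11 reads in K20R replicate 2. At both sites the second K20R library was level with WT and the first made no call. The Rian site carried a motif, and the Meg3 site did not.

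Of the sites called in both K20R lists, the strongest in K20R included the Fcho1 and Rp1 sites above. The repeat site 176786 bp from Tm2d1 (chr4:98206349-98206650) had 21 and 19 reads in WT and 17 and 29 reads in K20R, and 11 reads in day 0 K20R replicate 2. The site 44551 bp from Slc6a5 (chr7:49865490-49865701) had 12 and 12 reads in WT, 11 and 15 reads in K20R and 11 reads in day 0 K20R replicate 1. The site in an intron of Inpp4b (chr8:81812440-81812721), a phosphoinositide phosphatase gene, had 17 and 16 reads in WT, 11 and 25 reads in K20R and 7 reads in day 0 K20R replicate 2. The K20R and WT pileups overlapped at these 3 sites.

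K20R minus WT percentile over the same 52 sites had a median of -17.4 and was below 0 at 48. The gap between the 2 day 4 WT lists had a median of 9.24. Because the K20R lists are shorter, a percentile in them is not on the same footing. Constitutive sites, which were stronger in WT, had a median difference of -8.79, and 73.5% of them were below 0. The lowest differences, -44.5 to -36.5, were at the Kcna10 distal site, the Fgf5 site, the Foxf1 site, the Zfp12 start site and the Col18a1 site. The highest, -2.88 to 4.44, were at sites near Ercc5, Pnkd and Hspa2 and in introns of Col4a2 and Nr1h3. At the Pnkd site (142 bp from the start site) the pileups were 11 and 8 reads in WT and 9 and 11 reads in K20R. Both genotypes overlapped at this site.

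Peaks of K20R mESCs at day 0 were not used to choose the sites. Of the 312 sites, 54 (17.3%, 13.5 to 21.9) had a peak in at least 1 day 0 K20R list, although neither WT mESC library had a call. Over all sites the share was 64.7%. Among unshared acquired sites it was 5.49% (4.52 to 6.64), a difference of 11.8 percentage points (95% Newcombe interval 7.86 to 16.5). Unshared acquired sites weighted to the same WT strength had a share of 6.07%. The 2 lists held 40 and 26 of the shared acquired sites, and 12 were in both. Each list alone gave a higher share than among unshared acquired sites (12.8% against 2.91%, and 8.33% against 3.19%). With a peak in both lists required, the difference was 3.23 points (1.53 to 6.0).

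The share with a day 0 K20R peak rested on the WT libraries and on list length. Without the first day 0 WT library it was 65.1%, a difference of 42.0 points (40 to 44). Without the second it was 26.7% (20.4 points, 16.1 to 25.1), and with lists of one length 39.8% (31.5 points, 28.1 to 34.7).

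These day 0 K20R calls were also weak, with median pileups of 9 and 8 reads. Sites called in both day 4 K20R lists had a day 0 K20R peak more often (16 of 52, 30.8%) than those in 1 list (a difference of 16.2 points, 4.28 to 30.2). The repeat site in Kdm2b (chr5:122974703-122974988), a histone demethylase gene, was one of those called in all 4 K20R lists, with 12 and 12 reads at day 0 and 9 and 15 reads at day 4. It had 13 and 14 reads in WT EBs. The Rarres1 start site had 7 and 7 reads at day 0 in K20R.

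The remaining 258 sites (82.7%) had no day 0 peak in either genotype. Of these, 36 were called in all 4 day 4 lists, and so were also acquired in K20R by the same rule (both day 4 K20R lists, neither day 0 K20R list). That is 11.5% of the shared acquired sites (8.45 to 15.6), where 0.533% of all sites were acquired in K20R. The rule used the day 4 K20R calls, so nothing is read from that difference.

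Many shared acquired sites lay at transcription start sites. A start site of the GENCODE M21 basic annotation was within 3 kb of the summit at 149 of 312 sites (47.8%, 42.3 to 53.3). This compares with 25.7% of unshared acquired sites, a difference of 22.1 points (16.2 to 27.9), and with 23.0% of constitutive sites. Within 1 kb the shares were 36.5%, 12.9% and 11.8%. The median distance to a start site was 3524 bp at shared and 10602 bp at unshared acquired sites. Weighting to WT strength left the unshared share at 23.9%. Exons held 20.2% of shared and 9.91% of unshared acquired sites, introns 51.3% and 52.0%, and intergenic sequence 28.5% and 38.1%.

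The size of this difference rested on 2 libraries and on list length, although its interval stayed above 0 in each case. Without the first day 0 WT library it was 6.47 points (4.59 to 8.38), and without the second day 4 K20R library 11.7 points (1.77 to 22.3). With lists of one length it was 8.09 points (4.45 to 11.7). Sites called in K20R replicate 2 alone lay near start sites more often than those in replicate 1 alone (50.7% against 31.4%, a difference of 19.2 points, 1.46 to 33.6). At sites called in both the share was 46.2%. The other sites of both day 4 WT lists had the same order, with 32.7% for calls in K20R replicate 2 alone and 14.4% in replicate 1 alone. The part of that library in the result was not tested.

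The 5 strongest sites within 3 kb of a start site included the Rian and Syt8 sites above, which lie near a microRNA gene and a predicted gene. The Zfp12 start site (chr5:143235354-143235804, 458 bp away, in an intron of this zinc finger gene) had 21 and 21 reads in WT and 9 and 10 reads in K20R. The Tnfrsf11b start site (chr15:54278518-54278833, 223 bp away) had 18 and 21 reads in WT and 10 and 11 reads in K20R. Tnfrsf11b encodes osteoprotegerin, a decoy receptor that limits osteoclast formation. At both, the genotypes did not overlap, but these sites too were chosen for high WT values. The Rarres1 start site (chr3:67515431-67515840, 93 bp away, a retinoic acid responsive gene) had 19 and 19 reads in WT and 17 reads (95% Poisson interval 9.90 to 27.2) in K20R replicate 2 alone.

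H3K27ac went with the start sites. In WT EBs, 112 of 312 shared acquired sites (35.9%, 30.8 to 41.4) overlapped an H3K27ac peak, against 11.9% of unshared acquired sites (a difference of 24.0 points, 18.6 to 29.6) and 11.7% of constitutive sites. In K20R EBs the share was 34.0% (28.9 to 39.4), against 11.0% (a difference of 23.0 points, 17.7 to 28.6) and 15.2%. Both genotypes had an H3K27ac peak at 97 sites (31.1%), WT alone at 15 and K20R alone at 9. H3K27ac at these sites was therefore mostly called in both genotypes or in neither (191 sites). This held in the other classes as well. H3K27ac in WT alone and in K20R alone was at 4.81% and 2.88% of shared acquired sites. The shares were 3.53% and 2.58% of unshared acquired sites, and 1.92% and 5.48% of constitutive sites. Without the first day 0 WT library the differences were 5.90 points in WT and 6.69 points in K20R. Without the second day 4 K20R library they were 13.9 and 20.9 points, and with lists of one length 6.43 points (3.71 to 9.11) and 7.03 points (4.24 to 9.79).

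**Figure D4:**
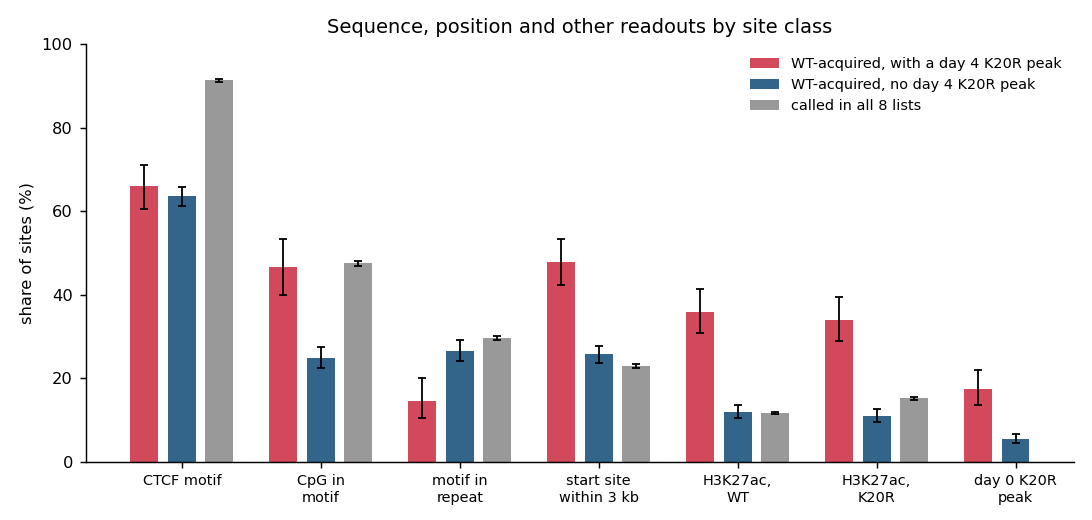
Share of sites (%) with each feature for shared acquired sites (312), unshared acquired sites (1786) and constitutive sites (36440). Bars carry 95% Wilson intervals, CpG and repeat shares are over sites with a motif, and constitutive sites are left out of the day 0 K20R column, where they are called by definition. Start sites and H3K27ac were more frequent at shared acquired sites, at 47.8% and 35.9% against 25.7% and 11.9%.

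The H3K27ac difference was present near start sites and away from them. Near start sites, 58.4% of shared and 26.1% of unshared acquired sites overlapped WT H3K27ac (a difference of 32.2 points, 23.2 to 40.8). Elsewhere the shares were 15.3% and 7.01% (a difference of 8.33 points, 3.37 to 14.8). In K20R the differences were 30.4 points (21.4 to 39.0) and 8.47 points (3.63 to 14.8). The day 0 K20R share differed from unshared acquired sites in both places as well, by 9.57 points near start sites and 13.3 points elsewhere. No split by start site was recomputed with libraries left out or with lists of one length.

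The strongest sites with H3K27ac in both genotypes included the Fgf5 site, the Zfp12 start site, a site in an intron of Agps (chr2:75873926-75874212, an enzyme of ether lipid synthesis) and the Armcx6 start site (chrX:134750721-134751011, 435 bp away). The Agps site had 15 and 20 reads of CTCF pileup in WT and 11 reads in K20R replicate 2, with H3K27ac fold enrichments of 4.52 in WT and 5.12 in K20R. The Armcx6 site had 17 and 19 reads in WT and 11 reads in K20R replicate 2, with H3K27ac fold enrichments of 4.30 and 3.70. The site in 2900026A02Rik (chr5:113138703-113139036) had 21 and 16 reads in WT and 14 reads in K20R replicate 2. With H3K27ac in WT alone, the sites 15326 bp from Cldn16, a tight junction gene, and in an intron of Sema6a, a semaphorin gene, had fold enrichments of 5.54 and 6.21. With H3K27ac in K20R alone, the sites in introns of Col18a1, Rxra and Inpp4b had fold enrichments of 2.97, 2.97 and 3.43.

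A CTCF motif, with a matrix score that 5% of windows moved by 1 kb reached, lay within 100 bp of the summit at 206 of 312 sites (66.0%, 60.6 to 71.1). The share was 63.5% at unshared acquired sites (a difference of 2.48 points, -3.38 to 7.99) and 91.3% at constitutive sites. At the stricter score passed by 1% of shifted sequences it was 25%, 19.6% and 66.0%, and the difference from unshared acquired sites was 5.4 points (0.534 to 10.8). Whether the interval included 0 thus depended on the score required. The shifted windows came from day 0 WT peaks and were not matched to these sites for GC content. The distance from summit to motif centre had a median of 22 bp at shared, 23 bp at unshared acquired and 14 bp at constitutive sites. The motif lay on the plus strand in 47.1%, 50.7% and 50.1% of cases.

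Of the shared acquired sites with a motif, 46.6% (39.9 to 53.4) had a CpG in the match, as in the first 5 of the start site set printed above. This compares with 24.8% of unshared acquired sites (a difference of 21.8 points, 14.7 to 29.1) and 47.5% of constitutive sites. The difference rested on the second day 4 K20R library. Without it the difference was 6.0 points, and its interval, -5.55 to 19.7, included 0. Of the matches at sites called in K20R replicate 2 alone, 51.0% (78 of 153) held a CpG, against 23.8% (5 of 21) for replicate 1 alone and 40.6% (13 of 32) for both. Without the first day 0 WT library the difference was 12.9 points (10.6 to 15.2). The part of these libraries in the CpG result was not tested. At position 16 of the matrix, counted from the 5′ end of the printed strand, G stood in 58.3% of matches at shared and 41.5% at unshared acquired sites. At constitutive sites it was 53.2%. Other positions differed by similar amounts. In shared against unshared acquired sites, A stood at position 6 in 50.5% against 70.2%, and G at position 11 in 66.5% against 50.1%. The CpG difference was seen near start sites, with 74.7% against 39.3% (35.4 points, 23.9 to 45.0). Away from start sites it was 24.3% against 20.3%, and the interval of the difference, -3.41 to 13.0 points, included 0. Base composition moved with it. Median GC content of the 201 bp at the summit was 55.7% at shared, 49.8% at unshared acquired and 48.3% at constitutive sites, and near start sites 61.7% at shared against 53.2% at unshared acquired sites. The part of GC content in the motif, CpG and start site results was not tested.

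**Figure D5:**
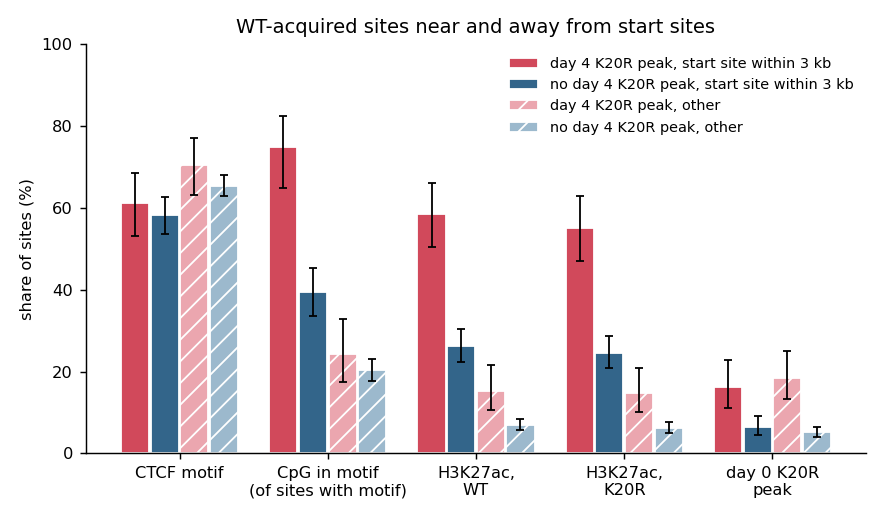
Share of WT-acquired sites (%) with each feature, split by the presence of a start site within 3 kb (solid bars) or not (hatched bars) and by a day 4 K20R peak. Bars carry 95% Wilson intervals, over 149 and 163 shared and 459 and 1327 unshared acquired sites (CpG over those with a motif), and the CpG share of 74.7% near start sites stands above the other 3 classes.

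Repeats were less frequent at shared acquired sites. The motif match was masked as repeat at 14.6% of shared and 26.5% of unshared acquired sites with a motif (a difference of -12.0 points, -16.9 to -5.95), and at 29.6% of constitutive sites. Near start sites the shares were 7.69% and 24.0%. Away from them they were 20% (13.7 to 28.2) and 27.3% (24.4 to 30.4), with intervals that overlapped. The repeat difference was not recomputed with libraries left out. The 12-mer found in the most motif windows of shared acquired sites, CCAGAAGAGGGC, stands in the Lmo7 and Kdm2b repeat sites printed above. It stood in 12 of their 206 windows of 61 bp (5.83%, 3.36 to 9.90), in 11.5% of those of unshared acquired sites and in 16.8% of those of constitutive sites. All 12 of these matches were masked as repeat. At the Rab20 repeat site (chr8:11442157-11442468, in an intron of Col4a2) the pileups were 13 and 9 reads in WT EBs, 8 and 11 reads in K20R EBs and 9 and 8 reads in K20R mESCs. At the Hspa2 repeat site (chr12:76407879-76408152) they were 8 and 8 reads in WT EBs and 8 and 9 reads in K20R EBs. WT and K20R overlapped at both.

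Shared acquired sites were also somewhat nearer to constitutive sites. A constitutive site lay within 5 kb of 29.5% of them and of 22.8% of unshared acquired sites (a difference of 6.70 points, 1.51 to 12.3). The median distance was 11230.5 bp and 16852 bp. The difference of 6.70 points was not recomputed with libraries left out or with lists of one length. By chromosome, the share of WT-acquired sites with a K20R peak was highest on chromosome 8 (28 of 108, 25.9%, 18.6 to 34.9) and was 7.29% on chromosome 14 (7 of 96, 3.58 to 14.3). Within chromosome 8, 10 of 28 WT-acquired sites between 80 and 110 Mb were shared (35.7%, 20.7 to 54.2). Between 40 and 70 Mb of chromosome 14 it was 1 of 30. Elsewhere it was 14.8%. Both segments were picked with the K20R signal of these data already known, so nothing is read from their shares. The Inpp4b site described above lies in the chromosome 8 segment.

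Genes of pluripotency, the germ layers and cohesin were looked up within 100 kb of the sites. As background, 1119 of 21924 protein-coding genes (5.10%) had a shared acquired site within that distance, and 4445 (20.3%) had one of the more numerous unshared acquired sites. Of the mesoderm list, 3 of 29 genes had a shared and 6 an unshared acquired site. The site 68 bp from Foxc2, a forkhead gene of paraxial mesoderm and vessels (chr8:121115991-121116181), had 9 and 12 reads in WT and 9 reads in K20R replicate 1 alone. The Foxf1 site (chr8:121090807-121091126, 6563 bp from this forkhead gene of lateral mesoderm) lay 25154 bp away from it, with 24 and 18 reads in WT and 10 and 8 reads in K20R. Every K20R pileup at the Foxf1 site was below both WT pileups, but this site was also named above for its low K20R minus WT difference. The site 167 bp from the glycolysis gene Aldoa (chr7:126799085-126799906), 17938 bp from Tbx6, a T-box gene of presomitic mesoderm, had 18 and 13 reads in WT and 10 and 13 reads in K20R.

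Of the genes for germ layer signals, 4 of 35 had a shared and 11 an unshared acquired site. The Wnt5b start site (chr6:119543815-119544206, 403 bp away) had 9 and 8 reads in WT and 6 reads in K20R replicate 2. The Fgf5 site (chr5:98310503-98310872, 56313 bp from this FGF gene of the epiblast) was among the strongest, with 30 and 30 reads in WT, 16 and 18 reads in K20R, 7 reads in day 0 K20R replicate 2, no motif, and H3K27ac fold enrichments of 5.72 in WT and 4.15 in K20R. The site at the Dmtn start site (chr14:70635579-70635833), 6500 bp from Fgf17, had 10 and 11 reads in WT and 6 reads in K20R replicate 2. The site in an exon of Notch1 (chr2:26460766-26461025), which encodes a receptor of cell contact signalling, had 15 and 16 reads in WT and 12 reads in K20R replicate 2.

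Of the pluripotency list, 5 of 21 genes had an unshared acquired site and 3 a shared one, namely Dnmt3l, a DNA methyltransferase cofactor (12079 bp), Utf1 (31939 bp) and Tdgf1, a Nodal co-receptor (72289 bp). The Utf1 site (chr7:139975594-139975843) had 15 and 16 reads in WT and 9 and 18 reads in K20R. The Dnmt3l site (chr10:78067290-78067727) had 14 and 14 reads in WT, 8 reads in K20R replicate 1 alone and 8 reads in day 0 K20R replicate 1. Of the neural list, 3 of 23 genes had a shared and 3 an unshared acquired site. The site 65067 bp from Sox1 (chr8:12330090-12330419) had 24 and 20 reads in WT and 7 reads in K20R replicate 1 alone. The site 19332 bp from Pax7 (chr4:139852712-139852976) had 18 and 19 reads in WT and 10 reads in K20R replicate 2, and that 52320 bp from Nes (chr3:88023045-88023620) had 9 and 8 reads and 8 reads.

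None of the 27 cardiac genes and none of the 16 endoderm genes had a shared acquired site within 100 kb, where 11 and 3 had an unshared acquired site. With 5.10% of all coding genes near a shared and 20.3% near an unshared acquired site, counts of this size are small, and no test was made. In the cohesin list, 1 of 15 genes had a shared and 3 an unshared acquired site. The site 548 bp from the start of Stag1, a cohesin subunit (chr9:100642716-100643029), had 16 and 12 reads in WT and 10 reads in K20R replicate 2, and H3K27ac peaks in both genotypes.

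Besides the pairs at Meg3 and Rian and at Foxf1 and Foxc2, 6 more pairs of shared acquired sites lay within 50 kb of each other. At Rxra, a nuclear retinoid receptor gene, the sites were 40925 bp apart in introns (chr2:27699457-27699706 and chr2:27740323-27740601), with 19 and 14 reads and 11 and 16 reads in WT, and 10 and 12 reads in K20R replicate 2. In Kdm2b they were 22547 bp apart. At Rassf8 they were 1678 bp apart, 27 and 1705 bp from the start site. The others were at Foxh1 and Lrrc14 (46489 bp apart), in Speg (33567 bp) and at Arhgap23 and Srcin1 (36142 bp). Foxh1 encodes a transcription factor of Nodal signalling, and its site (chr15:76668351-76668727) had 12 and 7 reads in WT and 7 reads in K20R replicate 2.

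At the threshold, the sites with the lowest deciding −log10 q-value were in introns of Dner, Pdhb and Rif1, near Lmo7 and in Speg. In Dner (chr1:84383524-84383756), 13 and 9 reads in WT stood beside 5 reads and a −log10 q of 1.40 in K20R replicate 2. At the Rif1 start site (chr2:52072814-52073112), the deciding value was that of WT replicate 2, with 5 reads and 1.69. Outside the rule, the 5 unshared acquired sites strongest in WT had 20 to 31 reads in WT and no day 4 K20R call. The lists do not show how near they came to a K20R call. A site in Mink1 (chr11:70612427-70612837) had 26 and 31 reads in WT, and one near Kcnj9 (chr1:172333492-172333866) had 21 and 25 reads.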

How the data were processed

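Mouse CTCF and H3K27ac ChIP-seq peak lists were analysed. The authors trimmed reads (Trim_Galore), aligned them to mm10 (bowtie2), removed low-quality, duplicate and blacklisted reads, subsampled the CTCF libraries to equal depth and called peaks per library with MACS2 (broad for H3K27ac). The deposited lists give fold enrichment, a −log10 p-value and a −log10 q-value per peak. The deposited integer score was not used. The 4 input samples were not analysed here, and the input behind each list is not given in the sources used here.

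Below a −log10 p of 200, pileups were solved, and a whole number matched the deposited −log10 p within 0.01. The depth of each library beyond that is unknown. The motif matrix came from the 1000 strongest peaks of each day 0 WT list, seeded by CCGCCAGGGGGC, the most over-represented 12-mer near summits, and both strands were scanned. Where a site had several peaks in a list, the strongest was used. Strength matching weighted sites to 10 deciles of WT percentile. No p-values were computed. With 2 libraries against 2 an exact permutation test cannot go below 0.333. Replicates are called biological in the study, and the labels do not say how they were separated.

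Sites named were the 10 strongest in WT, the 5 strongest in K20R, the 5 highest and lowest K20R minus WT percentiles, sites within 100 kb of listed genes, the 5 strongest near start sites and with H3K27ac in both genotypes or 1, pairs within 50 kb, and sites at the threshold. The 5 unshared acquired sites strongest in WT were also looked up. Coordinates are 1-based. The sites and gene lists were chosen with earlier results of these data known. Merging, pileups and motif scanning were tested on simulated data. Alternatives were a −log10 q minimum of 5, lists shortened to equal length, summit windows of ±250 bp, autosomes, other distances and thresholds, and leaving out each library. Python 3.11.15, NumPy 2.4.6, SciPy 1.17.1, pandas 2.3.3 and pysam 0.24.0 were used.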

Additional observations from a re-analysis of the deposited data

How the results depend on the processing

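No paired analysis was possible because the results come from no test. With peaks of −log10 q of at least 5, 22.4% of sites had a day 0 K20R peak, 29.5% overlapped WT H3K27ac, and the median percentiles in the K20R lists were 16.0 and 16.5. With lists of one length there were 1182 sites, of which 39.8% had a day 0 K20R peak, 79.8% a motif, 29.4% a start site within 3 kb, and 15.2% (WT) and 16.3% (K20R) H3K27ac. Median percentiles were then 46.3 and 46.6 in WT and 15.5 and 24.8 in K20R. Requiring both day 4 K20R lists left 52 sites, with day 0 K20R peaks at 30.8%, K20R H3K27ac at 40.4% and a median of 16.9 in K20R replicate 2, settings chosen after seeing the data except for the count. A peak in both day 0 K20R lists was found at 3.85%. The motif share was 25% at the 1% threshold and 59.3% within 50 bp. Start sites within 1 kb gave 36.5%. H3K27ac peaks of −log10 q of at least 5 gave 26.0% in WT and 22.8% in K20R, and H3K27ac within 1 kb gave 39.7% in K20R. Weighted to WT strength, unshared acquired sites had a motif at 66.6% and K20R H3K27ac at 9.38%.

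Leaving out each CTCF library in turn gave 87 to 3071 sites, with a day 0 K20R peak at 8.33% to 65.1%, a motif at 60.7% to 78.5%, a start site at 28.6% to 50.9%, and H3K27ac at 15.1% to 37.5% in WT and 16.8% to 36.3% in K20R. Without the first day 0 WT library these were 3071 sites, 65.1%, 78.5%, 28.6%, 15.1% and 16.8%. Over the same libraries, the differences from unshared acquired sites were 5.14 to 42.0 points for day 0 K20R peaks, 6.47 to 24.5 for start sites, 5.90 to 25.4 (WT) and 6.69 to 24.7 (K20R) for H3K27ac, and 6.0 to 26.6 for a CpG in the motif match. The CpG interval included 0 without the second day 4 K20R library. The other intervals lay above 0 in every setting applied to these differences (q-value minimum, one list length, summit windows, autosomes, each library left out), as did that for a peak in both day 0 K20R lists, at 3.23 points (1.53 to 6.0). Applying the settings to these differences was chosen after seeing the data. Of 176 recomputed values, 136 were counted as staying within the interval, range or side of the main value. A difference was counted if it kept its side of 0, however far its size moved. Some values could not change, such as the motif share without a day 0 K20R library. The count is therefore not a measure of stability. Most sites had few reads, so a missing call does not show that binding was absent.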
